A study of Mus musculus with 5 samples.

Results

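Chemokines are small secreted proteins that guide leukocytes, and their receptors are seven-helix membrane proteins on the responding cells. The genes described here are the autosomal protein-coding genes of RefSeq on mm10 whose symbols begin with Ccl, Cxcl or Ccr and a digit, the receptors Cxcr1 to Cxcr6 that lie on autosomes, and Xcl1, Xcr1, Cx3cl1, Cx3cr1 and Ackr3. This rule took 58 of the annotated genes by name, and uses no measured value, although it was written with earlier results of these data known. Of these, 56 are described here, out of 20558 autosomal protein-coding genes in all. Ccl21c has no place on an assembled autosome and was not analysed here. The 56 genes are 38 ligands (24 CC, 12 CXC, Xcl1 and Cx3cl1) and 18 receptors (10 CC, 5 CXC, Xcr1, Cx3cr1 and Ackr3). Members within 100 kb of each other were joined, which gave 30 loci, 11 of them with 2 or more members. Cxcr3 lies on X and Cxcl11 is annotated as a transcribed pseudogene, so neither counts.

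The data are chromatin immunoprecipitation with sequencing of epidermal cells from the back skin of mice with the genotype Control, at postnatal day 71. All mice carried the reporters K14-RFP, for which keratin 14 is a basal keratinocyte gene, and K10-H2B-GFP, for which keratin 10 is a suprabasal gene. Basal progenitors were sorted as Sca1-positive cells with high RFP and without GFP. Of the 5 libraries, 2 were made with an antibody to H2AK119ub, 2 with an antibody to H3K27me3 and 1 was an input. The sources used here do not give the number or sex of the mice or any pooling. The deposited data are 1 list of called regions for each mark, with positions only. There is therefore no replicate error, no read depth and no test between samples, and each value below describes these lists.

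H2AK119ub is put on histone H2A by Polycomb repressive complex 1, and H3K27me3 is put on histone H3 by Polycomb repressive complex 2. Both are linked to gene repression, and H2AK119ub is also found outside H3K27me3 chromatin. In skin, keratinocytes secrete several chemokines constitutively and others after injury, infection or cytokine exposure, whereas most chemokine receptors are known from leukocytes. A gene is called marked here when at least 1 bp of a region lies over the annotated gene body or within 1 kb of it.

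H2AK119ub was called at 32 of the 56 members (57.1%), where 60.4% of all autosomal protein-coding genes were called by the same rule. H3K27me3 was called at 17 members (30.4%), beside 25% of all genes. Both marks were called at 15 members, beside 21.8% of all genes, H2AK119ub alone at 17, beside 38.6%, and H3K27me3 alone at 2, beside 3.26%. Neither mark was called at 22 members (39.3%), beside 36.4% of all genes. These members are short, with a median annotated span of 5.24 kb against 17.6 kb for all genes, and a short gene has less room for a region. Among genes under 10 kb the shares were 50.5% for H2AK119ub, 18.4% for H3K27me3 and 16% for both, and the 40 members of that size had 22 (55%), 12 (30%) and 11 (27.5%). Neither mark was called at 47.0% of genes under 10 kb and at 17 (42.5%) of those members. Members share regions with their neighbours, so the 30 loci were counted as well. H2AK119ub was called at a member of 21 loci, H3K27me3 at a member of 12, and 8 loci had neither mark at any member. A locus of several genes counts as marked when any member is. No such count was made for all genes, so the locus counts have no background share. The 8 unmarked loci are not all separate cases. Those of Ccl21d, Ccl21b and Ccl27b lie in the same 1063 kb stretch of chromosome 4 without H2AK119ub. Those that hold Ccr9 and Ccr2 are neighbours on chromosome 9.

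**Figure D1:**
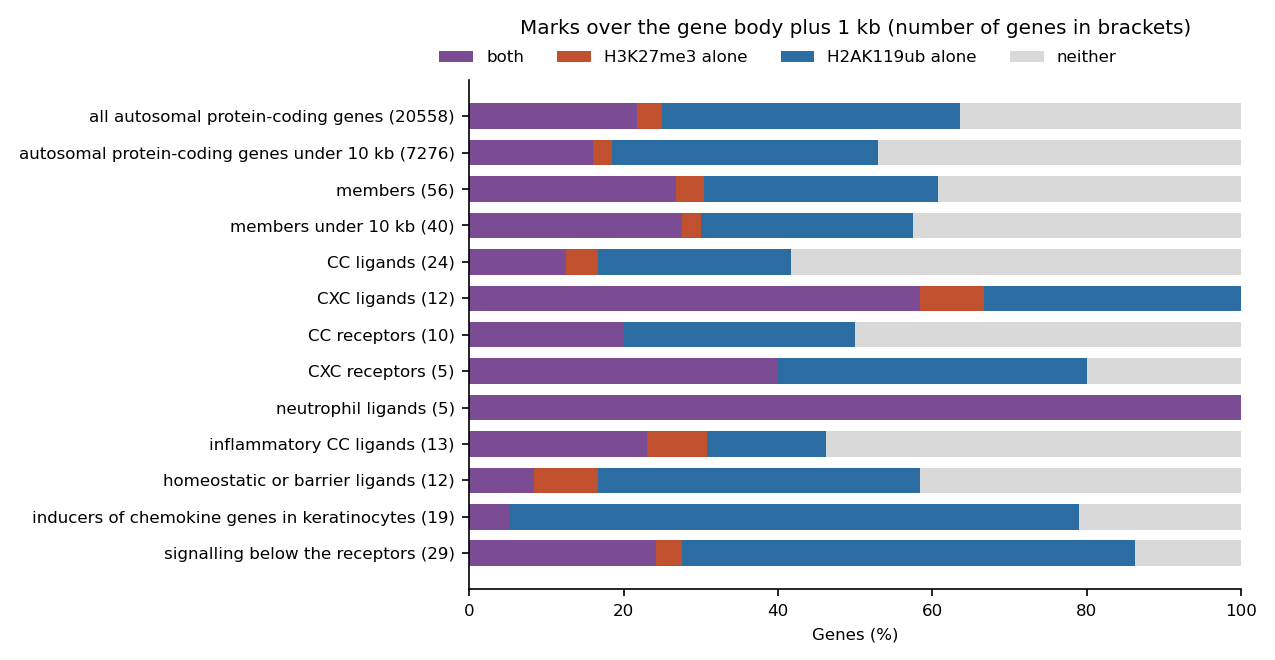
Share of genes in each state (both marks, H3K27me3 alone, H2AK119ub alone, neither) over the gene body plus 1 kb, with the number of genes in brackets; bars are counts from 1 list per mark and carry no error. All 12 CXC ligands have a called region of at least 1 mark, while 14 of the 24 CC ligands have none.

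The extent of a region over a member was often complete for H2AK119ub and partial for H3K27me3. The window of a gene is its annotated body plus 1 kb on each side. At the members called for H2AK119ub the median share of the window covered was 100%, against 62.5% at all genes called. Wholly under the mark lay 21 of the 56 members, beside 3090 of all 20558 genes. At the members called for H3K27me3 the median was 67.9%, against 28.1% at all genes called, and 6 members lay wholly under it, beside 686 of all genes. With a mark required over at least 50% of the window, 26 members were called for H2AK119ub, 10 for H3K27me3 and 9 for both, beside 33.6%, 8.76% and 7.24% of all genes. Among genes under 10 kb the median covers of called genes were 100% and 83.8% for all genes, and 100% and 87.6% for the members. Of that size, 16 of 40 members and 1959 of 7276 genes lay wholly under H2AK119ub, and 5 and 549 wholly under H3K27me3. Cover of at least 50% was not counted for genes of that size alone. The 36 different H2AK119ub regions at members ranged from 1.32 to 320.5 kb with a median of 21.6 kb, and the median autosomal region was 8.09 kb. The 16 different H3K27me3 regions at members ranged from 1.73 to 40.2 kb with a median of 11.2 kb, and the median autosomal region was 7.69 kb. A wide region meets a gene more easily than a narrow one does, so regions at genes are wider than regions at large by construction.

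**Figure D2:**
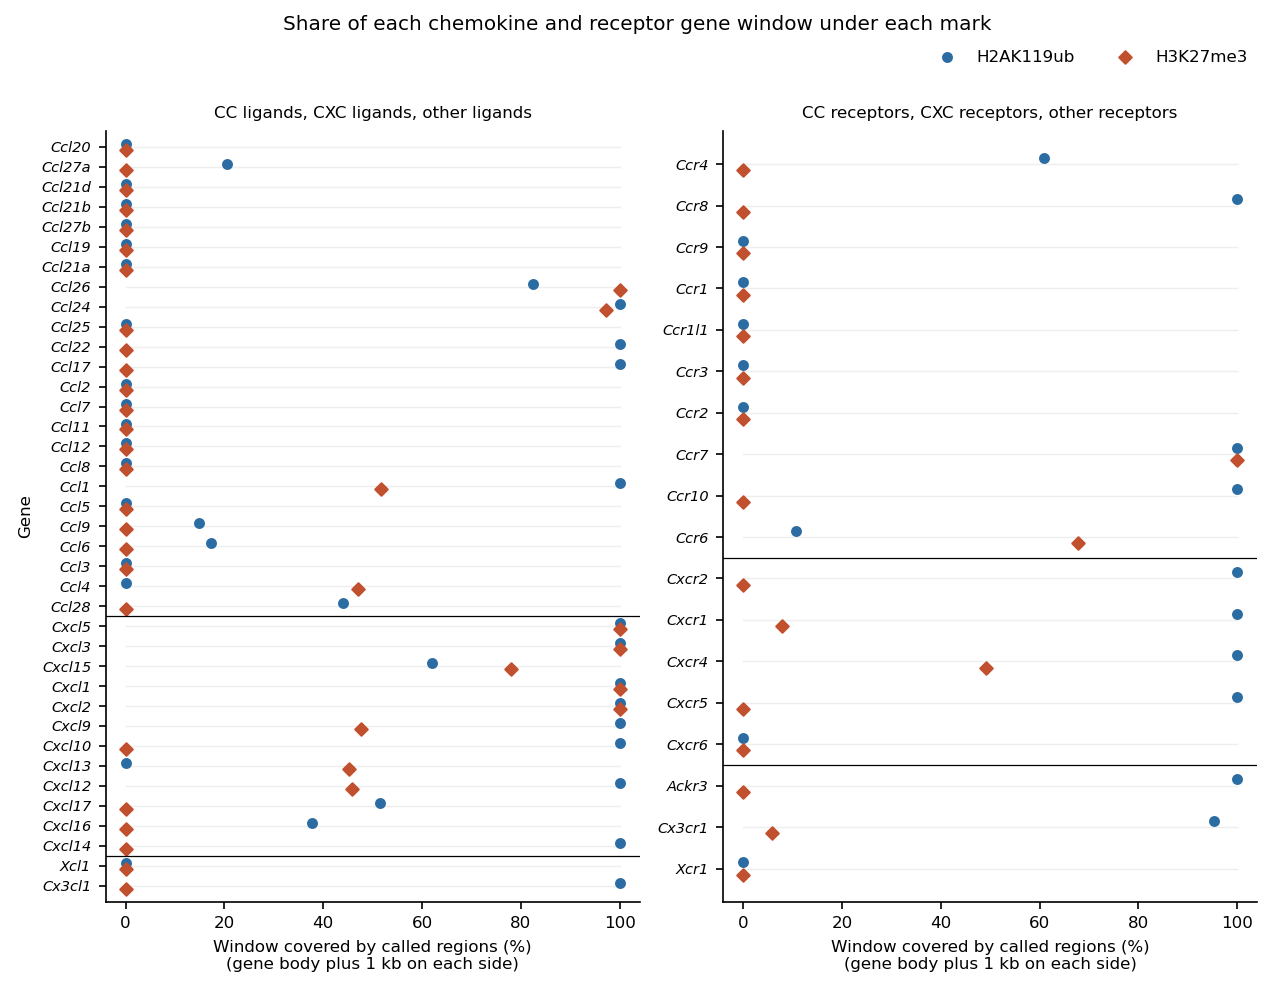
Share of each member's window (gene body plus 1 kb on each side, in %) under called H2AK119ub regions (blue circles) and H3K27me3 regions (red diamonds), by family and in chromosome order within it. Cxcl1, Cxcl2, Cxcl3, Cxcl5 and Ccr7 are at 100% for both marks, and the receptors from Ccr9 to Ccr2 are at 0% for both.

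The sequences just upstream of the start are shown for members that stand for the 3 main states, since the states cut across promoter types. RefSeq (GRCm38.p6, the assembly of mm10) gave a promoter entry and a strand for 43 of the 56 members. Each line is the 250 bases before the annotated start, 5′ to 3′, and capitals mark a match to the NF-kB consensus or the letters TATAAA on either strand. No match to one of these motifs overlapped a match to the other in the lines shown. The first 4 have both marks called and H3K27me3 over the start, and represent the loci with the widest H3K27me3 regions among members with such an entry. The next 2 have H2AK119ub alone, in the widest regions among members with an entry at the outer end of the gene, and Ccl20 has neither mark.
Cxcl3 (chr5:90785851-90786100, plus strand): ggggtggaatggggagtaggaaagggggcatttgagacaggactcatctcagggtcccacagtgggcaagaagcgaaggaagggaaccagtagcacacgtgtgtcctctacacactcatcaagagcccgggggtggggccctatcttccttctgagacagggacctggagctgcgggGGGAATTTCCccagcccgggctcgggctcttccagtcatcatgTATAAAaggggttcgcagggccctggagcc
Ccl1 (chr11:82179813-82180062, minus strand): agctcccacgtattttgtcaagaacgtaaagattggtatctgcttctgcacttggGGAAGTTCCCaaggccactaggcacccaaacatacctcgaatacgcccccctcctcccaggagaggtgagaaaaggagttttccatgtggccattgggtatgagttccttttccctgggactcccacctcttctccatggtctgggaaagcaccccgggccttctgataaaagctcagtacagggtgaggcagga
Ccr6 (chr17:8235793-8236042, plus strand): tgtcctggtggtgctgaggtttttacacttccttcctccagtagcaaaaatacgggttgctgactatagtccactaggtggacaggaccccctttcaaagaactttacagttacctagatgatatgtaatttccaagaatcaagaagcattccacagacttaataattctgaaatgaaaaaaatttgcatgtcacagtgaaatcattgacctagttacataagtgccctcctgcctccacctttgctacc
Cxcl12 (chr6:117168285-117168534, plus strand): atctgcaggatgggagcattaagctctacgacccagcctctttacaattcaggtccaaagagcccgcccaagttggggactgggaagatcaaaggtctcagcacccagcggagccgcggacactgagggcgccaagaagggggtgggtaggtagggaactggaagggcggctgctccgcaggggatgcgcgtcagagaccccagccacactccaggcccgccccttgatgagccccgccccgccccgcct
Ackr3 (chr1:90203730-90203979, plus strand): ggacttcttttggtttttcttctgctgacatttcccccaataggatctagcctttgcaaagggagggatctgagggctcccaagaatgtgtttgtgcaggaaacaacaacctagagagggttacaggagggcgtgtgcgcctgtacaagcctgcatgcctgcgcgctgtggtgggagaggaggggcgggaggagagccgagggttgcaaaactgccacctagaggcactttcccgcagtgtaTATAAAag
Cxcr2 (chr1:74153744-74153993, plus strand): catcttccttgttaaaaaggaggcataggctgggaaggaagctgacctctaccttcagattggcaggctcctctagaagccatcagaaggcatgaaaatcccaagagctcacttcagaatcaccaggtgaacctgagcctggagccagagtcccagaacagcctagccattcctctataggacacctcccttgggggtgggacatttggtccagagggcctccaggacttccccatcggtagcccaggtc
Ccl20 (chr1:83116516-83116765, plus strand): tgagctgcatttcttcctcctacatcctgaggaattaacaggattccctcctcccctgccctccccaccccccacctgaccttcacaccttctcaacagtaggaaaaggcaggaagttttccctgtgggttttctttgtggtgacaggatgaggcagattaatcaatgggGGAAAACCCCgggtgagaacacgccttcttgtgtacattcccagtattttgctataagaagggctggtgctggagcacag
Cxcl3 holds 1 NF-kB match beginning 73 bases before the start and TATAAA beginning 30 bases before it. Ccl20 also holds an NF-kB match, beginning 80 bases before the start, and had neither mark. Ccl1 holds 1 NF-kB match, beginning 195 bases before the start. The number of CpG dinucleotides in these 250 bases was 14 for Cxcl12, 7 for Cxcl3, 7 for Ackr3, 5 for Ccl1, 2 for Ccl20, 1 for Ccr6 and 1 for Cxcr2.

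Most member promoters were poor in CpG, whether or not a mark lay over the start. In the full entries of 300 bases (250 before and 50 after the start), the median ratio of observed to expected CpG was 0.23 for the 43 members and 0.60 for all 16457 autosomal protein-coding genes with an entry. An entry was called CpG-rich at a ratio of at least 0.6 with at least 50% G and C, which held for 6 members (14.0%) and 47.3% of all entries. The 6 were Cxcr4, Cxcl12, Cx3cl1, Cxcl14, Ccl25 and Ccl21b, of which the first 4 had H2AK119ub over the start and the last 2 had neither mark. H3K27me3 lay over the start of 1 of the 6 CpG-rich members, Cxcl12, and of 8 of the other 37. Over all 43 entries H2AK119ub lay over the start of 20 members, beside 37% of all entries, and H3K27me3 over the start of 9, beside 16.2%. An NF-kB match was found in 8 of the 43 entries (18.6%) and in 6.03% of all entries, and TATAAA in 12 (27.9%) and in 13.5%. Of the 8 members with both marks over the start, Cxcl1, Cxcl2, Cxcl3 and Ccl1 held an NF-kB match (50%, beside 9.23% of all such entries). The first 3 of these genes lie in 1 locus. A match was also found at 1 of 12 members with H2AK119ub alone over the start (8.33%, beside 7.24%). With neither mark there, 3 of 22 members held one (13.6%, beside 4.89%). A match is a description of the letters and shows no binding.

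**Figure D3:**
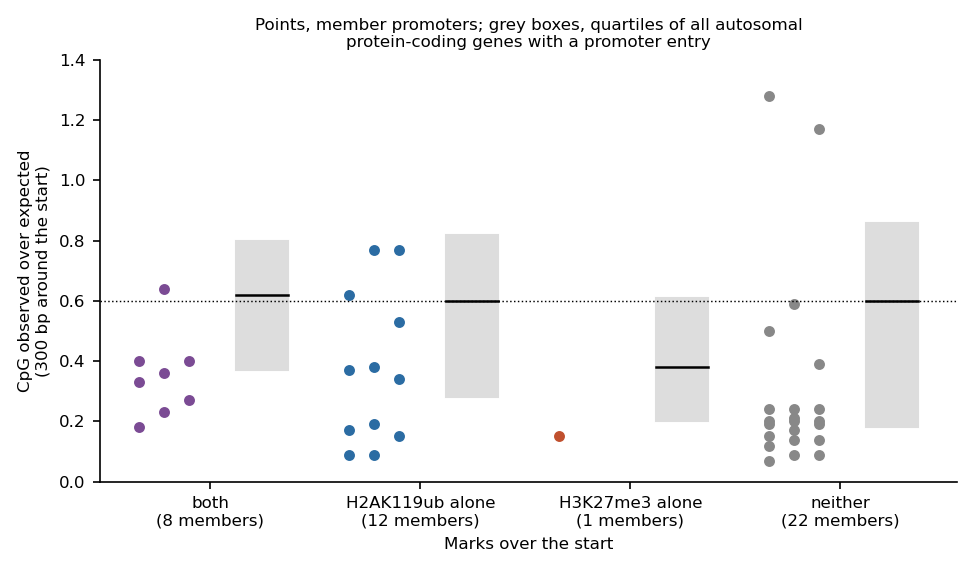
Ratio of observed to expected CpG in the 300 bases around the start, by the marks called over the start; points are members, grey boxes span the quartiles of all autosomal protein-coding genes with an entry, with the median as a black line, and the dotted line is at 0.6. Of the 8 members with both marks over the start, Cxcl12 (0.64) is the one above the dotted line.

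Among the 6 families of ligands and receptors, the CXC ligands had the highest share of genes with each mark. H2AK119ub was called at 11 of 12 (beside 60.4% of all genes) and H3K27me3 at 8 of 12 (beside 25%), from 7 loci of which 6 had the former and 4 the latter. The 5 ligands of neutrophils, Cxcl1, Cxcl2, Cxcl3, Cxcl5 and Cxcl15, supply 5 of the 8 and form 1 locus, so they are a single case. That locus spans 147 kb of chromosome 5 from 90759298 to 90905938, with 75.6% of it under H2AK119ub and 50.7% under H3K27me3. Its lower part lay under one 40.2 kb H3K27me3 region from 90754404 to 90794634 and one 41.8 kb H2AK119ub region from 90753225 to 90794999. These regions covered the whole windows of Cxcl5 and Cxcl3, and of the platelet chemokine genes Pf4 and Ppbp, which lie between them and fall outside the naming rule. Both ended just inside Cxcl15, known from lung epithelium, and further regions of 15.2 kb (H3K27me3, from 90796961 to 90812202) and 13.4 kb (H2AK119ub) covered the rest of it after a gap. In all 77.9% of the Cxcl15 window was under H3K27me3 and 61.9% under H2AK119ub.

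Cxcl1 and Cxcl2, the neutrophil attractants that keratinocytes release when inflamed, lay at the upper end of the locus. One 19.99 kb H3K27me3 region from 90888617 to 90908610 covered both genes. H2AK119ub was called there as separate regions of 13.2 kb over Cxcl1 and 11.5 kb over Cxcl2. Between Cxcl15 and Cxcl1, where no member lies, H2AK119ub was called in 5 further regions and H3K27me3 in 1, of 5.51 kb. The neighbouring genes on either side of the cluster, Rassf6 and Mthfd2l, had H2AK119ub alone.

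The interferon-induced ligands of chromosome 5 shared H2AK119ub and differed in H3K27me3. Cxcl9 and Cxcl10, which attract activated T cells, lay in one 92.0 kb H2AK119ub region from 92310919 to 92402929. Cxcl9 also had a 7.50 kb H3K27me3 region from 92324918 to 92332421, across its start at 92328079 and 47.6% of its window. Cxcl10 had none over its window. The next H3K27me3 region began at 92357171, beyond the start of Cxcl10 at 92348889.

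The remaining CXC ligands, all from the list of homeostatic or barrier ligands, were mixed. Cxcl12, the stromal ligand of Cxcr4, lay wholly under a 24.9 kb H2AK119ub region. A 24.7 kb H3K27me3 region from 117149590 to 117174324 reached from upstream of Cxcl12 over its start and across 45.8% of its window. Cxcl14, an epithelial chemokine abundant in skin, lay in a 241 kb H2AK119ub region of chromosome 13 with no H3K27me3 over its window, although the nearest H3K27me3 region was 15.4 kb away and the neighbouring gene Neurog1 had both marks. Cxcl16, a membrane-bound ligand, and Cxcl17, a mucosal chemokine, had H2AK119ub alone over 37.7% and 51.5% of their windows. Cxcl13, the B cell attractant, had H3K27me3 alone, in a 2.77 kb region from 95958019 to 95960784 that covered 45.1% of its window and began 1.08 kb after the start. Cxcl13 lies in a stretch of 2926 kb without a called H2AK119ub region, and the nearest ones were 2624 kb below and 295.5 kb above its window.

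Many CC ligands, among them most genes of the cluster from Ccl2 to Ccl1 on chromosome 11, were outside both lists. H2AK119ub was called at 9 of the 24 CC ligands (37.5%, beside 60.4% of all genes) and H3K27me3 at 4 (16.7%, beside 25%). Neither mark was called at 14 (58.3%, beside 36.4%). Of these, 5 are ligands of chromosome 4, where copied genes can share reads, and 5 lie from Ccl2 to Ccl8. The 24 CC ligands are short, with a median span of 3.17 kb. Among all genes under 10 kb, 50.5% had H2AK119ub, 18.4% had H3K27me3 and 47.0% had neither. By locus, 6 of 11 had H2AK119ub and 3 had H3K27me3 at a CC ligand. Of the 13 inflammatory CC ligands listed as monocyte and eosinophil attractants, 5 had H2AK119ub, 4 had H3K27me3 and 7 had neither.

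In the cluster from Ccl2 to Ccl1, which spans 144 kb of chromosome 11 from 82035577 to 82179812, the marks lay at 1 end. Ccl2 and Ccl7, which attract monocytes, Ccl11, which attracts eosinophils, and Ccl12 and Ccl8 had neither mark. A short H2AK119ub region of 0.931 kb ended at 82032733, below Ccl2 and outside its window. Ccl1, a ligand of Ccr8, lay wholly under a 55.6 kb H2AK119ub region. A 35.4 kb H3K27me3 region from 82178153 to 82213549 crossed the Ccl1 start and covered 51.7% of its window. Another H3K27me3 region, of 16.6 kb from 82157143 to 82173712, lay between Ccl8 and Ccl1, outside the windows of all members. The next genes on either side, Asic2 at 67.2 kb below Ccl2 and Tmem132e at 209 kb above Ccl1, had both marks.

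The second cluster, from Ccl5 to Ccl4, spans 139 kb of the same chromosome from 83525778 to 83664683 and was patchily marked. Ccl5, a T cell attractant, lay between H2AK119ub regions that ended at 83523040 and began again at 83532172, so that its window had none. Ccl9 and Ccl6 had H2AK119ub alone over 14.9% and 17.4% of their windows, at the far end of Ccl9 and at the start of Ccl6. Ccl3 had neither mark. Ccl4 had H3K27me3 alone, in a 12.7 kb region from 83657181 to 83669897 over 47.1% of its window. The RefSeq span of Ccl4 is 16.1 kb and overlaps Ccl3, and the region lies in the part of it beyond Ccl3. The nearest gene above, Wfdc17, had H3K27me3 alone.

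**Figure D4:**
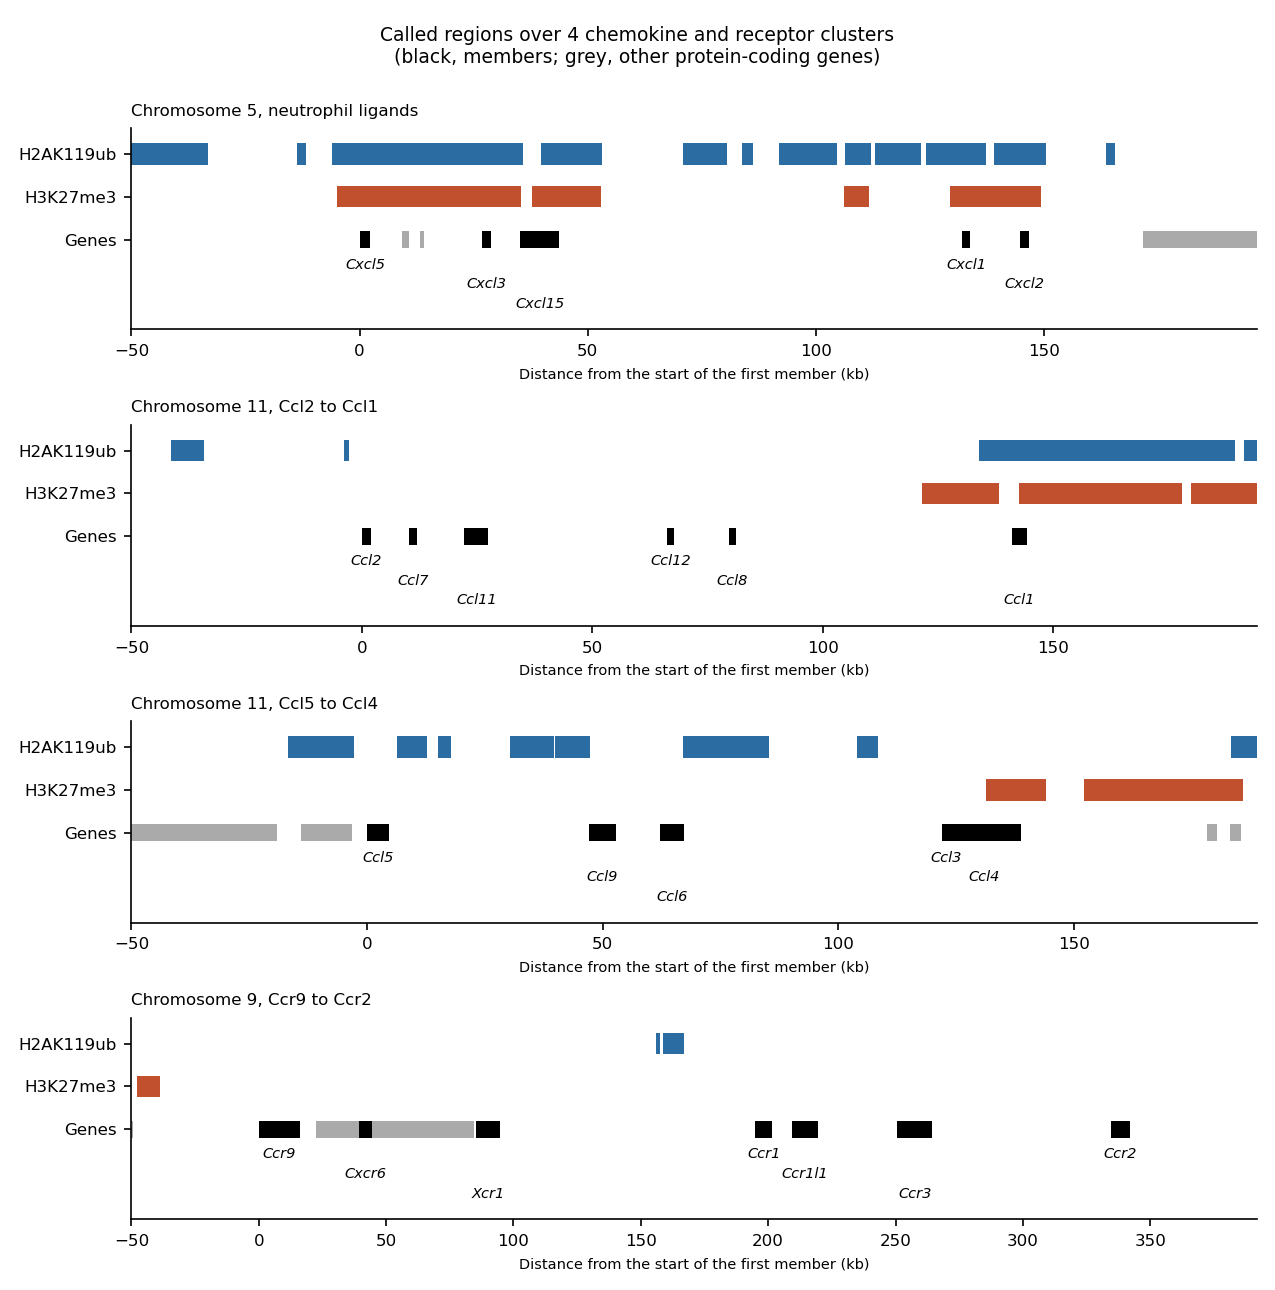
Called H2AK119ub regions (blue) and H3K27me3 regions (red) over 4 clusters, with members in black and other protein-coding genes in grey; the horizontal axis is the distance in kb from the start of the first member. The neutrophil ligands lie under both marks, the marks meet Ccl1 alone in the cluster from Ccl2 to Ccl1, and no region touches the 7 receptors from Ccr9 to Ccr2.

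The eosinophil attractants Ccl24 and Ccl26 on chromosome 5 had both marks, unlike the unmarked Ccl11, which has the same receptor, Ccr3. H3K27me3 covered 97.3% of the Ccl24 window in a 6.44 kb region from 135569076 to 135575518, and all of the Ccl26 window in a 9.66 kb region from 135556976 to 135566636. H2AK119ub covered 100% of the former and 82.5% of the latter. Ccl22 and Ccl17, ligands of Ccr4 made by dendritic cells and by keratinocytes in allergic skin, lay wholly under H2AK119ub with Cx3cl1 between them, in regions of 64.3 kb and 24.7 kb on chromosome 8. A 6.41 kb H3K27me3 region from 94753567 to 94759978 lay in that locus between Ccl22 and Cx3cl1, outside the windows of all 3 genes.

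The epithelial CC ligands Ccl27a, Ccl28, Ccl20 and Ccl25 showed H2AK119ub or no mark, and no H3K27me3. Ccl27a, the keratinocyte chemokine that attracts skin-homing T cells, had H2AK119ub over 20.5% of its window, nearly all of it from a 19.96 kb region that covers its far end and other genes, and not over its start. Ccl28, an epithelial ligand of Ccr10, had H2AK119ub regions of 7.07 and 7.24 kb inside the gene, the first beginning 0.33 kb after the start. Ccl20, the epithelial ligand of Ccr6, had neither mark, and the nearest H2AK119ub regions were 45.4 and 33.1 kb beyond its window. Ccl25, known from thymus and gut, and Xcl1, made by lymphocytes, also had neither mark. Ccl25 lay in a 4045 kb stretch without H3K27me3, a width that 36 of 12933 autosomal gaps between such regions reached. It lay near the lower edge of that stretch, with H3K27me3 regions 105 kb below and 3903 kb above its window.

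Of the ligands reported from chromosome 4, all but Ccl27a had no called region. Ccl19, Ccl21a, Ccl21b, Ccl21d and Ccl27b had neither mark, and these 5 lay in a single stretch of 1063 kb without H2AK119ub. Of 30070 autosomal gaps between H2AK119ub regions, 334 were at least as wide. As background, this part of chromosome 4 carries repeated copies of such genes, and a short read from a copied stretch may match more than 1 of them. How alike the copies are was not measured here. The treatment of such reads is not stated in the sources at hand, and its part in the result was not tested. The annotated span of Ccl21b, 83.7 kb, is far longer than the 1.13 kb of Ccl21a and Ccl21d.

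The shares of receptor genes with each mark were close to those of all genes. H2AK119ub was called at 11 of the 18 receptors (61.1%, beside 60.4%), H3K27me3 at 5 (27.8%, beside 25%), and 7 had neither mark (38.9%, beside 36.4%). These 7 are Ccr9, Cxcr6, Xcr1, Ccr1, Ccr1l1, Ccr3 and Ccr2, which lie over 342 kb of chromosome 9 from 123767211 to 124109140. They serve T cells, dendritic cells, monocytes and eosinophils. As neighbours in 1 stretch they are not 7 separate cases, and all 11 receptors outside it had H2AK119ub. The joining rule split this stretch into a locus from Ccr9 to Xcr1 and a locus from Ccr1 to Ccr2. Between Xcr1 and Ccr1 the lists held H2AK119ub regions of 1.30 and 8.61 kb, outside the windows of all members, and no H3K27me3. Lztfl1 and Fyco1, other genes beside or among these receptors, also had neither mark.

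The 5 receptors with H3K27me3 all had H2AK119ub too, beside 87.0% of all genes with H3K27me3. These 5 differed in where the marks lay. Ccr7, which takes T cells and dendritic cells to lymph nodes, lay wholly under both, in a 20.1 kb H3K27me3 region from 99143014 to 99163158 that touched no other protein-coding gene and a 149 kb H2AK119ub region that touched 3 genes in all. Ccr6, the receptor of Ccl20, had a 28.1 kb H3K27me3 region from 8223458 to 8251600 across its start, and 67.9% of its window under H3K27me3. H2AK119ub at Ccr6 was limited to regions of 2.38 and 2.00 kb at the far end, which covered 10.7% of the window. At the other 3 the H3K27me3 regions were short. Cxcr4, the receptor of Cxcl12, lay under a 23.3 kb H2AK119ub region, with a 2.997 kb H3K27me3 region from 128589098 to 128592094 inside the gene that began 0.20 kb after its start. Cx3cr1, a receptor of Langerhans cells and macrophages, had 95.2% of its window under H2AK119ub and a 2.11 kb H3K27me3 region from 120068034 to 120070146 over its start. Cxcr1, a neutrophil receptor, lay wholly under H2AK119ub, and its 2.92 kb H3K27me3 region from 74195325 to 74198247 lay upstream of the gene and met 7.80% of the window.

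H2AK119ub alone was called at Cxcr2, Ackr3, Cxcr5, Ccr4, Ccr8 and Ccr10. Cxcr2, the receptor of the neutrophil ligands, lay in a 186 kb region that touched 3 protein-coding genes. Ackr3, which removes Cxcl12 from the surroundings of the cell, lay in a 320.5 kb region from 90124853 to 90445367 that touched 2 genes in all. Its nearest H3K27me3 regions were 17.7 kb and 402 kb beyond the window. Cxcr5, of B cells, lay wholly under a 54.6 kb region, and Ccr8, of skin T cells, under an 11.8 kb region. Ccr10, the receptor of Ccl27a and Ccl28, lay under a 39.7 kb region that touched 5 protein-coding genes. Ccr4 had 3 regions of 2.35, 8.19 and 2.77 kb over 60.9% of its window.

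Ligands and their known receptors were in the same state in some pairs and not in others. These pairs were put together after the states had been seen and are not a full list. Of all genes, 38.6% had H2AK119ub alone and 36.4% had neither mark, so many pairs of genes share a state. Genes of 1 locus, such as Ccl17 and Ccl22, are not separate cases. Ccl17, Ccl22 and their receptor Ccr4 all had H2AK119ub alone, as did Ccl27a, Ccl28 and their receptor Ccr10. Cxcl12 and Cxcr4 had both marks, while Ackr3, the other receptor of Cxcl12, had H2AK119ub alone. Ccl25 and Ccr9 had neither mark, and neither did Xcl1 and Xcr1. The neutrophil ligands and the neutrophil receptor Cxcr1 had both marks, and Cxcr2 had H2AK119ub alone. Ccr3 and its ligand Ccl11 had neither mark, while its ligands Ccl24 and Ccl26 had both. Ccl20 had neither mark and Ccr6 had both, and Ccl19 and Ccl21a had neither mark and Ccr7 had both. Ccl1 had both marks and Ccr8 H2AK119ub alone, and Cxcl16 had H2AK119ub alone and Cxcr6 neither mark. Cxcl13 had H3K27me3 alone and Cxcr5 H2AK119ub alone, and Cx3cl1 had H2AK119ub alone and Cx3cr1 both marks.

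Genes that act with the chemokine system were described from 4 lists, to be read beside 60.4% of all genes with H2AK119ub and 25% with H3K27me3. Among 19 genes listed as inducers or regulators of chemokine genes in keratinocytes, 15 (78.9%) had H2AK119ub. Only Nfkb2, a subunit of NF-kB, had H3K27me3 (1 gene, 5.26%), over 15.3% of its window. Irf1, Irf7, Il17rc and Tnfrsf1a lay wholly under H2AK119ub, and Tlr3, Rel, Nfkbia and Ifngr1 had neither mark. Among 29 genes of signalling below the receptors, 24 (82.8%) had H2AK119ub and 8 (27.6%) had H3K27me3. The widest cover of H3K27me3 there was 97.4% of the window at Plcb2, 93.1% at Pik3r5 and 85.0% at Jak3. Prex1 followed with 51.5%. Some other genes of the list that are best known from leukocytes had little or none. H3K27me3 covered 1.13% at Dock2, Rac2 and Vav1 had H2AK119ub alone, and Pik3cg had neither mark. Gnai2, the inhibitory G protein subunit to which these receptors couple, lay wholly under a 155 kb H2AK119ub region with no H3K27me3. These genes have a median span of 52.8 kb, and a long gene meets a region more easily.

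Of 11 atypical receptors and chemokine-like genes, 10 had a row, of which 7 (70%) had H2AK119ub and 4 (40%) had H3K27me3. Of these 4, Pf4 and Ppbp lay under the same H3K27me3 region as Cxcl5 and Cxcl3, so they are not separate cases. The others were Cmklr1 and Gpr35, with H3K27me3 over 9.74% and 4.02% of their windows. The scavenging receptors Ackr1, Ackr2 and Ackr4 and the related Ccrl2 had H2AK119ub alone, the same state as Ackr3. Among 9 genes that cut, shed or hold chemokines outside cells, all 9 had H2AK119ub (100%) and 2 (22.2%), Mmp9 and Mmp2, had H3K27me3, over 100% and 8.37% of their windows. The median span of these 9 genes is 38.05 kb, longer than that of all genes.

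The labelled cell type was checked against the state of marker genes, since the lists hold no RNA. All 8 basal epidermal genes, among them Krt5, Krt14 and Trp63, had H2AK119ub and none had H3K27me3, beside 60.4% and 25% of all genes. All 4 suprabasal genes had H2AK119ub, and 2 of them, Krt10 and Lor, also had H3K27me3, over 65.4% and 49.8% of their windows. Of the markers of T cells and Langerhans cells, Cd207 and Cd3e had H3K27me3 over 100% and 95.6% of their windows, Thy1 had H2AK119ub alone and Ptprc had neither mark. H3K27me3 was called at 3 of 3 fibroblast genes, 0 of 4 melanocyte genes and 0 of 2 endothelial genes, so the lack of H3K27me3 does not set the basal genes apart. The part of other cell types in the regions at chemokine genes was not tested.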

How the data were processed

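Regions were read from 1 deposited list per mark, holding only positions per the file headers (33155 H2AK119ub and 15102 H3K27me3 regions); the lists hold no count, score or other value. Per the submitters' processing notes, Bowtie2 2.3.3.1, SAMtools 1.9 and mm10 were used, in roles not stated there. How regions were called, with which thresholds and input, whether libraries were pooled and how reads with several matches were treated is not given in the sources used here. Starts were read as counted from 0, which is uncertain by 1 bp. Genes and promoters came from RefSeq tables of GRCm38.p6, with strand for 43 of the 56 members; where an entry had several starts, the most 5′ was used, and a promoter reaching over 5 bases into the annotated gene was not printed. Overlap of at least 1 bp with the gene body plus 1 kb was counted in Python 3.11.15 with pandas 2.3.3, and the counting was tested on simulated data. With no replicate columns there was no test. Every reported member is named, and some genes that the rule or the lists take are not reported here. Positions are given for each member with H3K27me3 and for cluster edges. The members and gene lists were chosen with earlier results of these data known, and pairs of ligands and receptors after the states were seen. Alternatives were windows of 0 and 5 kb, 1 kb around the gene start, cover of at least 50%, regions of at least 5 kb, genes under 10 kb, joining within 20 or 500 kb and, added after seeing the data, leaving out the 6 Ccl19, Ccl21 and Ccl27 genes of chromosome 4. For the 13 members without a strand, and for other such genes, the start alternative took both ends of the gene.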

Additional observations from a re-analysis of the deposited data

How the results depend on the processing

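The 5 counts (members with H2AK119ub, H3K27me3 or both, and loci with each mark) stayed within 1.5 times their values under 32 of 35 alternative values. The exceptions came from requiring that a mark cover at least 50% of the window. This left 10 members with H3K27me3 (17.9%, beside 8.76% of all genes), 9 with both marks (beside 7.24%) and 5 loci with H3K27me3. Members with H2AK119ub numbered 26 under that rule, beside 33.6% of all genes. Members have a shorter median span than all genes, and that rule was not counted for genes under 10 kb alone. With regions of at least 5 kb only, 13 members had H3K27me3 (23.2%, beside 20.8% of all genes) and 11 had both marks (beside 17.4%). Loci with H3K27me3 then fell from 12 to 8, which is at the limit of 1.5 times. Without the 6 chromosome 4 ligands, an alternative added after seeing the data, 31 of 50 members had H2AK119ub and 17 had H3K27me3. No paired analysis was possible because the lists carry no replicate column, and leaving out a replicate could not be run for the same reason. The read depth is unknown, so a member without a region may carry a mark below the calling threshold, and widths depend on how neighbouring calls were joined.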
